A study of Rattus norvegicus with 2 samples.

Results

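The carbonic anhydrase genes were examined in the transcriptomes of rat OPCs. These oligodendrocyte precursor cells give rise to oligodendrocytes, which form central myelin. The genes were chosen by name, because Car2, a classic oligodendrocyte gene, differed between the libraries in the direction opposite to most other myelin genes. Of the 10 genes named, 9 were found among the 17455 genes of the expression table. Of these, 2 (Car2 and Car10) carried the name itself and 7 were found through their gene numbers, under older symbols such as Ca11. Car4 was not analysed here.

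There were 2 libraries, 1 per group. The first came from OPCs, labelled wild type, that were transfected with Slit1, the gene of a secreted ligand of Robo receptors, and the second from wild type OPCs transfected with vector alone. They are called Slit1 and vector. The time between transfection and harvest, the source animals and their age were not given in the sources used here. Since no group had a replicate, no difference has a replicate check and no p-value was computed. Levels are in TPM, the authors' measure of transcripts per length, scaled to an equal total in each library, and each ratio has a 95% interval that covers counting error only. Reads came to 18998770 estimated counts in Slit1 and 18817462 in vector, and a count of 0 in either allows up to 3 counts. Slit1 itself measured 229.65 TPM in Slit1 and 1.70 TPM in vector.

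Carbonic anhydrases are zinc enzymes that interconvert carbon dioxide and bicarbonate with release or uptake of a proton. They buffer the cytosol, the extracellular space and mitochondria, and they work beside bicarbonate and lactate transporters. In rodent brain, Car2 is the abundant cytosolic form, long used as a marker of oligodendrocytes and also found in choroid plexus and some astrocytes. The family further holds carbonic anhydrase-related proteins, Car8, Car10 and Car11, which lack enzyme activity because residues that bind the zinc are changed.

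The libraries were first set against markers of cell types. The 10 OPC markers were all measured over 1 TPM, among them Olig2 at 178.1 TPM in Slit1 and 171.4 TPM in vector. Of the 10, 3 were at least 1.5-fold higher in Slit1, 0 were lower and 7 lay between. Over all 13175 genes whose mean reached 1 TPM, 3.72% were higher and 4.83% lower by the same rule. Of the 3 higher, the transcription factor gene Sox10 measured 218.03 TPM in Slit1 and 71.44 TPM in vector. The receptor gene Gpr17 measured 262.97 and 109.76 TPM, and the proteoglycan gene Vcan 40.05 and 22.69 TPM, in the same libraries. Of the 7 between, Pdgfra differed by 0.04, Cspg4 by 0.03 and Ptprz1 by -0.41 in log2(TPM + 1), Slit1 minus vector. The median difference of the 10 was 0.17. The libraries also carried astrocyte transcripts: Gfap, the intermediate filament protein of astrocytes, measured 6130 TPM in Slit1 and 4694 TPM in vector. The 13 astrocyte markers summed to 13732 TPM in Slit1 and 13585 TPM in vector, more than the OPC markers, which summed to 2564 and 2417 TPM in the same libraries. The RNA thus went against a label of OPCs alone. In such bulk RNA, fewer cells of a type and less RNA per cell cannot be told apart.

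Car2 was the highest of the 9 genes in vector but not in Slit1. It measured 49.56 TPM (619 estimated counts) in Slit1 and 95.04 TPM (1159 estimated counts) in vector. The level was 1.92-fold lower in Slit1 as a ratio of TPM (counting interval 1.74 to 2.12). In the order of all genes by level, Car2 stood at place 4093 in Slit1 and at place 2222 in vector. On the scale of log2(TPM + 1) the difference, Slit1 minus vector, was -0.93. Among the 13175 genes whose mean reached 1 TPM, 0.964% had a lower difference. These values chose the gene and are given as a description.

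The other cytosolic enzymes were less abundant. Car13, a cytosolic form with high activity, measured 9.59 TPM (166.9 estimated counts) in Slit1 and 14.02 TPM (234.4 estimated counts) in vector. Its level was 1.46-fold lower in Slit1 (interval 1.19 to 1.79), and its difference of log2(TPM + 1) was -0.50. Car3, a cytosolic form of low activity that is abundant in muscle, liver and fat, was close to absent, with 0.44 TPM in Slit1 and 0.61 TPM in vector. Its direction is not determined: the estimated counts went the other way, with 7.83 in Slit1 and 3.99 in vector, and the interval of the TPM ratio ran from 0.197 to 3.34.

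In RefSeq, Car2, Car3, Car1 and Car13 are neighbours on chromosome 2 of the rat assembly GRCr8, in that order among protein-coding genes. Car1 was not analysed here. The genes that follow Car13, named for their place alone, were Rbis, which measured 41.75 TPM in Slit1 and 58.88 TPM in vector, and E2f5, the gene of a cell cycle transcription factor, which measured 54.71 TPM in Slit1 and 74.12 TPM in vector. Like Car2 and Car13, they were lower in Slit1, with differences of log2(TPM + 1) of -0.49 and -0.43, but neither passed 1.5-fold. The protein-coding genes just before Car2 had no values here, so only 1 side was seen. Of all genes tested, 7.04% had a lower difference than Car13, so differences of this size are not rare.

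**Figure D1:**
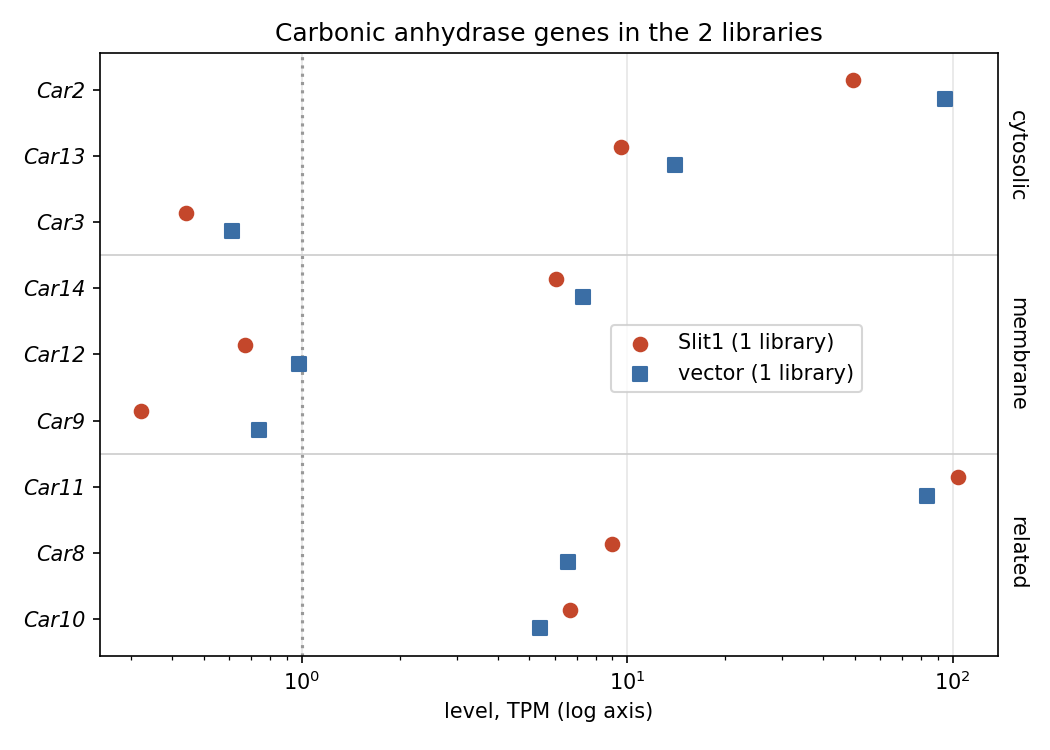
Level of the 9 carbonic anhydrase genes in the Slit1 library (circles) and the vector library (squares), in TPM on a log axis, with cytosolic enzymes at the top, membrane enzymes in the middle and carbonic anhydrase-related genes at the bottom; each point is 1 library and the dotted line marks 1 TPM. All 6 enzymes lie further left in Slit1 (Car3 in TPM but not in CPM), from Car2 at 49.56 against 95.04 TPM to Car9 at 0.32 against 0.74 TPM, and all 3 related genes lie further right.

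The membrane enzymes, whose active site faces the outside of the cell, were scarce. Car14, which spans the membrane and is known from neurons and some glia, measured 6.04 TPM (72.55 estimated counts) in Slit1 and 7.34 TPM (88.3 estimated counts) in vector. The ratio of 0.823 had an interval from 0.601 to 1.15, so a difference was not detectable at this depth. Car12, a membrane form of epithelia, measured 0.67 TPM in Slit1 and 0.98 TPM in vector, from 22 and 31 estimated counts. Its ratio was 0.684 (interval 0.377 to 1.22). Car9, the tumour-associated form that is a classic target of hypoxia-inducible factor, measured 0.32 TPM in Slit1 and 0.74 TPM in vector. It rested on 5.74 and 13.01 estimated counts, and its ratio of 0.432 had an interval from 0.141 to 1.28. The values of all 3 membrane genes were lower in Slit1, and all 3 intervals held 1.

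Of the 9 genes, 5 had a promoter window in the RefSeq table of GRCr8, which holds 250 bases before and 50 bases after each gene's start: Car9, Car10, Car11, Car12 and Car14. The windows were searched on both strands for the letters ACGTG, a form of the core of the element that hypoxia-inducible factor binds. They read CACGT on the opposite strand and are also part of the E-box CACGTG. The core's other form, GCGTG, was not counted over all windows. The windows of Car11 and Car12 hold CACGC, which is GCGTG on the opposite strand. A window without ACGTG, such as that of Car11, can thus still hold the letters of a core. The letters ACGTG were found in the 3 membrane genes and not in the windows of Car10 and Car11. Of all 33469 windows of this length, 19.3% hold the letters, and of 21 windows of hypoxia targets 12 do (57.1%). The 3 windows are shown because these genes form the membrane group and share the letters. They are written 5′ to 3′ along the gene, with ACGTG or CACGT in capitals.
Car9, chr5:62558774-62559073, plus strand: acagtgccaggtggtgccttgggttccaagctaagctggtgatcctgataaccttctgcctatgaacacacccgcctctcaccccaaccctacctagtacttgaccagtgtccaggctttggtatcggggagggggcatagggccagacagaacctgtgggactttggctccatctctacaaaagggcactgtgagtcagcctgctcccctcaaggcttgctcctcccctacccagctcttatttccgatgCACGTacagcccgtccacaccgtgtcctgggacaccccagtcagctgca
Car12, chr8:76169565-76169864, plus strand: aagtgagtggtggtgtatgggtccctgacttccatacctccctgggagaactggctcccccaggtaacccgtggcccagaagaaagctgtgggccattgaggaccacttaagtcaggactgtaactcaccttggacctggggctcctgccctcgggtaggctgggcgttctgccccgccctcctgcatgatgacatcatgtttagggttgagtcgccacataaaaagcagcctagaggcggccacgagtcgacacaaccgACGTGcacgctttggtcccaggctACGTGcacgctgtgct
Car14, chr2:186138115-186138414, minus strand: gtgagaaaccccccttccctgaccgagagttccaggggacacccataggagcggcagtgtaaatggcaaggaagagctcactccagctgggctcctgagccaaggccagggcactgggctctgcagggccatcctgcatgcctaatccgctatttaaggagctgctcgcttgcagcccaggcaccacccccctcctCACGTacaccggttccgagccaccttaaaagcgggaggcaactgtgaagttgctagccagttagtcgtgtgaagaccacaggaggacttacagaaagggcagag
The letters begin at base 2 of the transcript in Car9, at bases 11 and 35 in Car12, and 54 bases before the start in Car14. A match is a description of these letters and not a bound site.

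The carbonic anhydrase-related genes were higher in Slit1. The 6 enzymes above lay lower in TPM (Car3 not in CPM), but the intervals of Car3, Car9, Car12 and Car14 held 1. Of the enzymes given further below, Car5b (ratio 1.20, interval 0.804 to 1.80) and Car15 lay higher, and Car5a and Car6 lower. Car11, a secreted related protein of the nervous system that, with Car10, is known as a ligand of neurexins, measured 103.49 TPM (1187 estimated counts) in Slit1 and 83.40 TPM (919.4 estimated counts) in vector. Its ratio was 1.24 (interval 1.14 to 1.36). Car10, its closest relative, measured 6.68 TPM (137 estimated counts) in Slit1 and 5.41 TPM (106 estimated counts) in vector, with a ratio of 1.23 and an interval from 0.951 to 1.61 that held 1. Another gene of the table, LOC100911361, overlaps Car10 in GRCr8, and whether reads were divided between them was not tested. Car8, a cytosolic related protein known to bind the inositol trisphosphate receptor Itpr1 in Purkinje cells, measured 9 TPM (157.6 estimated counts) in Slit1 and 6.56 TPM (115.45 estimated counts) in vector. Its ratio was 1.37 (interval 1.08 to 1.77). The differences of log2(TPM + 1) were 0.40 for Car8, 0.31 for Car11 and 0.26 for Car10, all short of 1.5-fold. Of all genes tested, 92.6% lay below Car8, so differences of this size are not rare in these libraries.

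**Figure D2:**
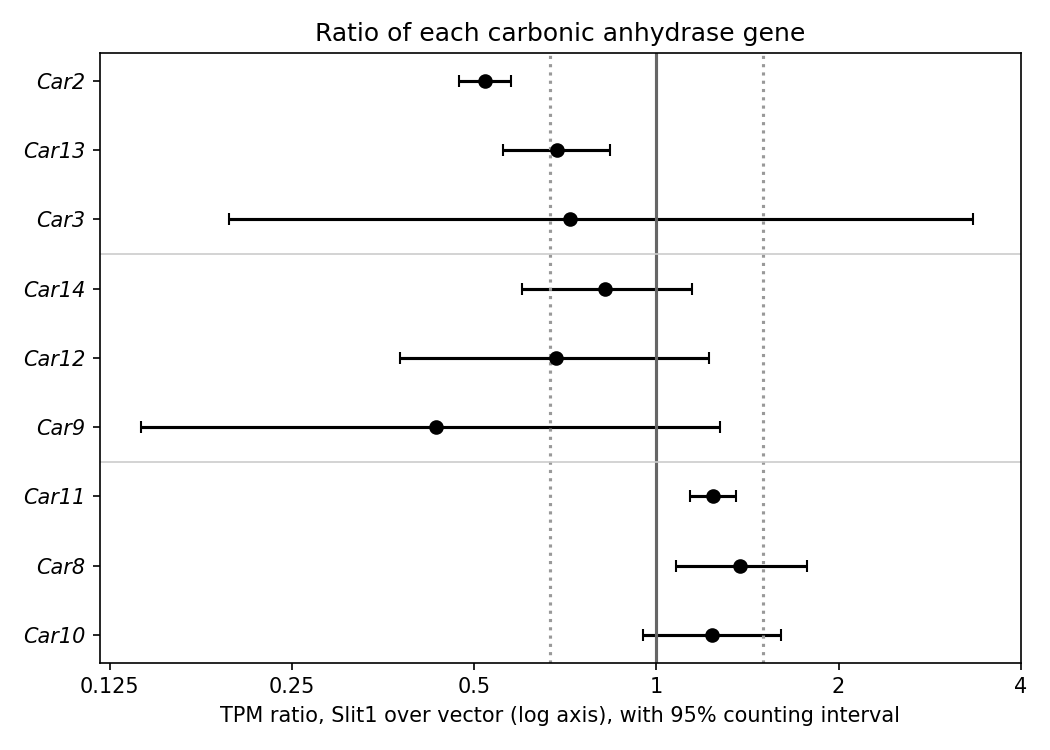
Ratio of TPM, Slit1 over vector, for each gene on a log axis, with bars for the 95% counting interval, a solid line at 1 and dotted lines at 1.5-fold in either direction. The interval of Car2 (0.472 to 0.575) lies wholly beyond 1.5-fold, those of Car13, Car11 and Car8 lie on 1 side of 1 and cross or stay short of 1.5-fold, and the other 5 intervals hold 1.

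Of the 9 genes, 6 had a mean of at least 1 TPM and 3 (Car3, Car9 and Car12) did not. Genes were counted as higher or lower from 1.5-fold on the scale of log2(TPM + 1). Among the 6, 0 were higher and 1, Car2, was lower. Over all 13175 genes, 3.72% were higher and 4.83% lower by this rule (4.43% and 3.72% with the median gene set to 0), and since Car2 was picked for its value nothing is read from its count. The median difference of the 6 genes was 0.01, beside -0.05 over all genes tested.

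The family's other genes were present at low levels. Car5b, a mitochondrial form, measured 3.16 TPM in Slit1 and 2.64 TPM in vector (ratio 1.20, interval 0.804 to 1.80). Car6, known as the secreted form of saliva, measured 3.28 TPM in Slit1 and 4.62 TPM in vector (ratio 0.710, interval 0.502 to 0.997). The mitochondrial form Car5a had 2.16 and 4.17 estimated counts in Slit1 and vector, and the membrane form Car15 had 1 and 0. Car7 was not analysed here. The 2 genes whose mean reached 1 TPM, Car5b and Car6, did not pass 1.5-fold.

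Per length, the make-up of the family followed Car2, whose value chose the genes, so the sums and the order of Car2 and Car11 restate that value in large part and are a description. The 13 measured genes summed to 192.54 TPM in Slit1 and 221.76 TPM in vector. The 10 genes of catalytic forms summed to 73.37 TPM in Slit1, which was 38.1% of the family, and to 126.39 TPM in vector, which was 57.0%. Car2 made up -45.48 of this difference of -53.02 TPM. The 3 related genes summed to 119.17 TPM in Slit1 and 95.37 TPM in vector. Without Car2 the catalytic forms summed to 23.81 TPM in Slit1 and 31.35 TPM in vector. In CPM, which is the count scaled to the library's total without regard to length, their ratio was 0.792 (interval 0.694 to 0.906). The ratio of the related genes was 1.29 (interval 1.19 to 1.39). Single genes weighed heavily in both sums. In vector, Car13 held 234.4 of the 502.4 estimated counts of the catalytic forms without Car2. Car11 held 919.4 of the 1141 estimated counts of the related genes in the same library. Car11 and Car2 together held 79.5% of the family's TPM in Slit1 and 80.5% in vector, in the opposite order: the level of Car11 was 2.09 times that of Car2 in Slit1 (interval 1.89 to 2.31) and 0.878 times that of Car2 in vector (interval 0.803 to 0.957).

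**Figure D3:**
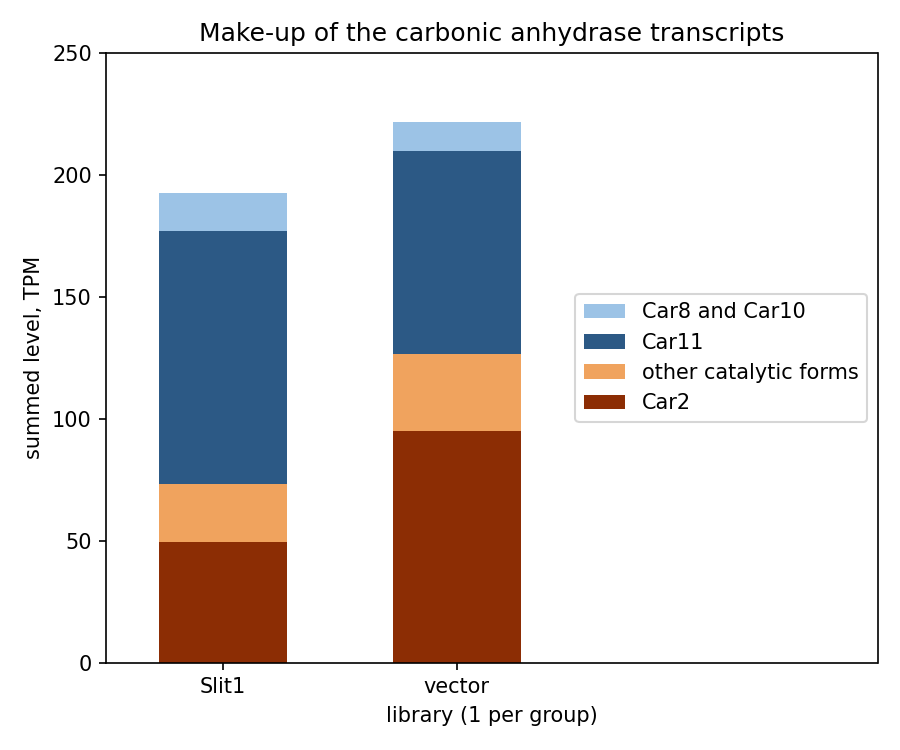
Summed level in TPM of the 13 measured carbonic anhydrase genes in the Slit1 library (left) and the vector library (right), stacked from the bottom as Car2, the other catalytic forms, Car11, and Car8 with Car10. The catalytic part is 73.37 TPM high in Slit1 and 126.39 TPM high in vector, while the related part above it is 119.17 and 95.37 TPM high in the same order.

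Within the levels of the 9 genes, some neighbours could not be separated by counting error. In Slit1 the order was Car11, Car2, Car13, Car8, Car10, Car14, Car12, Car3 and Car9, and in vector it was Car2, Car11, Car13, Car14, Car8, Car10, Car12, Car9 and Car3. In each library 4 of the 8 neighbouring pairs had a ratio of levels whose counting interval held 1. In Slit1 these were Car13 with Car8, Car10 with Car14, Car12 with Car3, and Car3 with Car9. In vector they were Car14 with Car8, Car8 with Car10, Car12 with Car9, and Car9 with Car3.

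Car2 was set beside the other myelin and mature oligodendrocyte genes, a list put together with earlier results of these libraries known. Of 30 such genes, 28 were in the table and 22 had a mean of at least 1 TPM. Of the 22, 16 were at least 1.5-fold higher in Slit1, 0 were lower and 6 lay between. All genes tested stood at 3.72% higher and 4.83% lower. The median difference of the 22 was 1.40. Among those that differed most, Mbp, the gene of myelin basic protein, measured 1704 TPM in Slit1 and 220.5 TPM in vector. Mag, an adhesion protein of the inner myelin membrane, had a difference of log2(TPM + 1) of 2.82, and the tight junction claudin Cldn11 one of 2.68. Car2 was chosen because it differed in the direction opposite to most myelin genes, so its place among them is given as a description. None of the 22 lay below Car2. The lowest of them were Aspa, the aspartoacylase of oligodendrocytes, at 10.69 TPM in Slit1 and 12.24 TPM in vector, and Gsn, the actin-severing protein gelsolin, at 183.52 and 195.8 TPM in the same libraries. Their differences were -0.18 and -0.09. In vector 8 of the 22 genes had a higher level than Car2, and in Slit1 15 did.

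**Figure D4:**
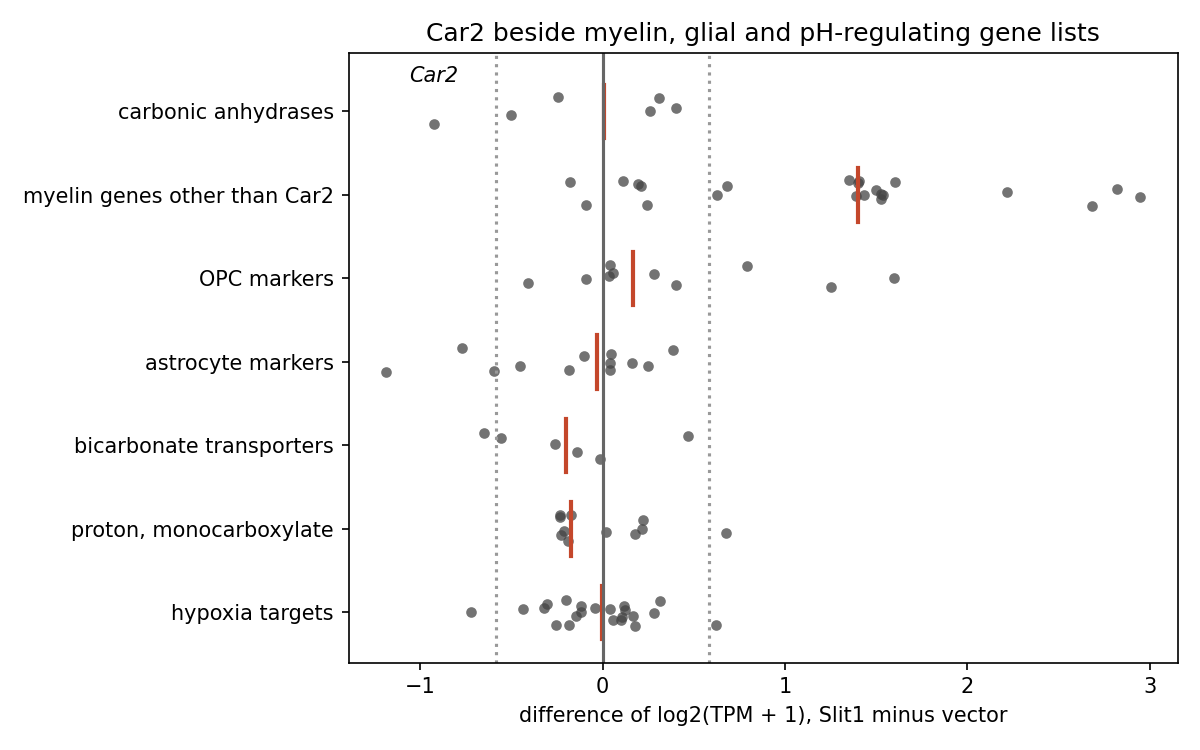
Difference of log2(TPM + 1), Slit1 minus vector, of each gene whose mean reached 1 TPM in 7 lists; each point is a gene, red bars are list medians, dotted lines mark 1.5-fold and points are spread vertically for legibility. Car2 lies at -0.93, left of all 22 other myelin genes, whose median is 1.40, and left of 11 of the 12 astrocyte markers, whose median is -0.03. Car2 was chosen for its contrast with the myelin genes, so its place beside them is a description.

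Astrocyte markers, from another cell type in which Car2 is known, lay on either side of 0. Of 12 astrocyte markers whose mean reached 1 TPM, 0 were higher by 1.5-fold or more and 3 were lower by as much. This count was 2 with the median gene set to 0, in CPM with or without TMM factors and in FPKM, where Glul did not pass, and all genes stood at 3.72% higher and 4.83% lower. The median difference of the 12 was -0.03, 6 of them lay above 0, and 11 lay above Car2. Slc1a2, the glutamate transporter GLT-1, measured 94.1 TPM in Slit1 and 215 TPM in vector, a difference of log2(TPM + 1) of -1.19. The gap junction gene Gja1 differed by -0.77 and the glutamine synthetase gene Glul by -0.59, while Gfap differed by 0.39 in the other direction and Gjb6 had 1 count in each library. The part of these transcripts in the difference of Car2 was not tested.

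Markers of the remaining cell types were mostly scarce. The counts of higher and lower markers below stand beside 3.72% higher and 4.83% lower over all genes tested. Of the 15 microglia markers 9 were in the table, of which 2 had a mean of at least 1 TPM, and 6 were not analysed here. Trem2 had 0 counts in Slit1 and Itgam 0 in vector. Cd68 was the 1 higher member, at 3.77 TPM in Slit1 and 1.91 TPM in vector, from 39 and 19 counts, and it did not pass in FPKM or with a pseudocount of 5. The 4 erythroid markers in the table summed to 1.09 TPM in Slit1 and 1.19 TPM in vector. Of the choroid plexus and ependymal markers, Foxj1 measured 119.91 TPM in Slit1 and 121.55 TPM in vector, while the choroid plexus gene Ttr measured 0.85 and 0.89 TPM. Neuron markers summed to 217.9 TPM in Slit1 and 211.03 TPM in vector. Of 13 over the floor 1 was higher, Elavl3 (0.69), and 3 were lower, Elavl4 (-0.79), Nefl (-0.72) and Gad2 (-0.59). The count lower was 1 in FPKM and 0 with a pseudocount of 5. Endothelial, mural and fibroblast markers summed to 105.93 TPM in Slit1 and 64.84 TPM in vector, mainly Tagln (79.92 and 36.24 TPM), with Flt1 the 1 lower of 5. Of the Schwann cell markers Pmp2, which astrocytes also express, was lower at 35.02 TPM in Slit1 and 56.89 TPM in vector. The 7 adipocyte and muscle markers in the table summed to 2.29 TPM in Slit1 and 2.72 TPM in vector.

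The receptor phosphatases with a carbonic anhydrase-like domain outside the cell were both lower in Slit1 by less than 1.5-fold. Ptprz1, a receptor of OPCs and astrocytes that binds pleiotrophin and contactin, measured 688.19 TPM in Slit1 and 913.63 TPM in vector (ratio 0.753, interval 0.743 to 0.763). Ptprg, its relative, measured 21.10 TPM in Slit1 and 30.12 TPM in vector (ratio 0.701, interval 0.641 to 0.767).

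The known partners of the related proteins did not pass 1.5-fold in either direction. Of the neurexins, the presynaptic receptors that Car10 and Car11 bind, Nrxn2 measured 129.68 TPM in Slit1 and 118.57 TPM in vector. Nrxn3 measured 3.69 TPM in Slit1 and 2.68 TPM in vector (ratio 1.38, interval 1.12 to 1.70). Of the inositol trisphosphate receptors, Itpr1 measured 1.51 TPM in Slit1 and 2.25 TPM in vector (ratio 0.671, interval 0.532 to 0.843), while Itpr2 measured 38.8 and 30.6 TPM (ratio 1.27, interval 1.21 to 1.33). Itpr1 was therefore lower in the library in which Car8 was higher. Itpr3 lay under the floor, with 0.70 TPM in Slit1 and 0.78 TPM in vector.

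Bicarbonate transporters supply or remove the product of the enzymes. Of 14 in the table, 6 had a mean of at least 1 TPM, of which 1 was lower and 0 were higher, with a median of -0.20. Among all genes tested, 3.72% were higher and 4.83% lower. The lower one was Slc4a7, a sodium bicarbonate cotransporter, at 19.38 TPM in Slit1 and 30.95 TPM in vector (ratio 0.626, interval 0.583 to 0.672), and it did not pass in FPKM or with a pseudocount of 5. Slc4a4, the electrogenic cotransporter of astrocytes, lay just short of 1.5-fold, with 42.4 TPM in Slit1 and 62.9 TPM in vector and a difference of log2(TPM + 1) of -0.56; it was chosen after its value was seen. Of 11 genes of proton and monocarboxylate transport over the floor, 1 was higher and 0 were lower, beside the same shares over all genes. That gene, the proton channel Hvcn1, rested on 18.4 and 6.91 estimated counts in Slit1 and vector, and its interval held 1 (0.939 to 6.68). The list's median was -0.17.

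Hypoxia targets, measured because Car9 and Car12 are known to follow hypoxia-inducible factor, lay on either side of 0. Of 22 genes, 1 was higher, 1 was lower and 20 lay between, with a median of 0.00. Over all genes tested, 3.72% were higher and 4.83% lower. The lower one was Adm, the peptide hormone adrenomedullin, at 13.54 TPM in Slit1 and 23.02 TPM in vector (ratio 0.588, interval 0.482 to 0.718). The count lower was 0 at 2-fold and for intervals wholly beyond 1.5-fold, and 2 with a pseudocount of 0.1. The higher one, Ankrd37, had 13 estimated counts in Slit1 and 6 in vector.

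By distance in the levels of both libraries on the log2(TPM + 1) scale, the genes nearest to Car2 were Atp2b1, a plasma membrane calcium pump, at 50.63 TPM in Slit1 and 87.85 TPM in vector, Pir, the gene of the nuclear protein pirin, at 54.59 and 92.76 TPM, and Gpc6, the proteoglycan glypican 6, at 50.98 and 86.25 TPM. Their distances were 0.116, 0.141 and 0.144. With 2 libraries this likeness rests on 2 values per gene.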

How the data were processed

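RNA of 2 libraries, 1 per group, was measured by sequencing. The authors deposited 1 table which, per the file headers, gives each gene's FPKM, TPM and read count in each library. Deposited TPM values sum to 1000000 per library, and the deposited read counts are estimated counts that need not be whole. The submitters' processing notes name the build mRatBN7.2. The aligner, counter, annotation, strand handling and filters were not given in the sources used here. By gene number, 17211 of 17455 genes (98.6%) were matched to RefSeq's table of another assembly, GRCr8, used for current symbols, gene order and promoter windows.

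For each gene log2(TPM + 1) in vector was subtracted from that in Slit1; this pseudocount makes changes of scarce genes look smaller. Calls were made from 1.5-fold over 13175 genes whose mean reached 1 TPM. Ratios of TPM carry an exact (Clopper-Pearson) 95% interval for 2 Poisson counts, using rounded estimated counts (SciPy 1.17.1), which was tested on simulated data. By a fixed rule the text names all family members, the phosphatases and partners, up to 4 genes past 1.5-fold from each other list, and the 3 genes nearest to Car2; a few genes that the rule takes in are not reported here. Members and lists were chosen with earlier results of these data known. Alternatives changed the pseudocount (0.1 or 5), the floor (0 or 5 TPM), the limit (2-fold, or intervals wholly beyond 1.5-fold) and the scaling (median gene set to 0, CPM, FPKM, or CPM with TMM factors from edgeR 4.0.16).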

Additional observations from a re-analysis of the deposited data

How the results depend on the processing

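The count of carbonic anhydrase genes at least 1.5-fold higher was 0 under all 10 alternatives. The count lower was 1 under 9 of them, and at a limit of 2-fold it was 0, since Car2 differed by less than that. The difference of Car2 ranged from -0.94 to -0.87 over 6 alternatives. Of the other 8 genes 7 kept their sign under the same 6 alternatives. The exception was Car3, at 0.22 in CPM with edgeR TMM factors and 0.22 in plain CPM, against -0.16 in TPM. In CPM, with or without TMM factors, 2 bicarbonate transporters were lower in place of 1; in FPKM, with a pseudocount of 5, at 2-fold and for intervals wholly beyond 1.5-fold 0 were. For the same 4 settings and a floor of 5 TPM, 0 microglia markers were higher in place of 1. Neuron markers lower, 3 in TPM, were 0 with a pseudocount of 5 and at 2-fold. They were 1 in FPKM, with a floor of 5 TPM and by the interval rule. With the median gene set to 0 and in CPM, with or without TMM factors, they were 2. With a pseudocount of 0.1 they were 4. Astrocyte markers lower, 3 in TPM, were 1 at 2-fold and 2 by the interval rule. Hvcn1 and Ankrd37 rest on few counts: with a floor of 5 TPM or a pseudocount of 5 the counts of higher genes in their lists were 0. These counts were also 0 in CPM with or without TMM factors, in FPKM, at 2-fold and by the interval rule. No paired analysis was possible because each group has 1 library. For the same reason no library could be left out. Depth limits the 3 family genes under 1 TPM, which rest on at most 31 counts.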
